A study of Mus musculus with 50 samples.

Results

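Control microglia were compared between embryonic day 16 (E16) and the day of birth (P0), with 7 libraries (4 at E16 and 3 at P0) of the 50 in the series. The members were chosen by their labels: controls without Cre of the tamoxifen-inducible line at these 2 ages. The study deleted the histone deacetylase genes Hdac1 and Hdac2 in microglia at several ages, and its control mice have both alleles of each gene floxed (HDAC1/2-loxP/loxP) but carry no Cre. Here the controls serve to describe what differs in microglia with intact Hdac1 and Hdac2 over the last days before birth. In both groups the dam had received 3 mg tamoxifen with progesterone by intraperitoneal injection on embryonic day 13, so age cannot be told apart from time since tamoxifen. Microglia were sorted from brain by flow cytometry, and RNA was amplified by the SMARTer version 4 method before tagmentation, which keeps no strand. Side by side with these stand the 4 untreated P0 controls without Cre of the constitutive line, which carry the same loxP alleles, and the controls of the inducible line at 2 and 6 weeks (4 each). Each library is a different animal, named by the animal number, and the labels name no litter.

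Microglia are the resident macrophages of the brain. They descend from yolk sac progenitors that enter the neural tube early in gestation, multiply there, and take on their mature programme of sensing receptors through colony stimulating factor 1, interleukin 34 and transforming growth factor beta signals. Around birth they are amoeboid and phagocytic, and the brain's surfaces and vessels hold a related population, the border macrophages, which a sort on shared surface markers can also collect.

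Library totals were 16067722 to 22611606 counts, and levels are given as CPM, the count scaled to a common library total, which is not corrected for gene length. Levels are listed in the order of E16 animals 2, 4, 5 and 6, then P0 animals 54, 55 and 56. Replicate libraries differed by more than counting error (chi-square per gene 17.7 to 67.6 at E16 and 17.8 to 53.96 at P0). The p-values set the difference between ages against the spread between animals of the same age, and do not cover differences between litters. In a principal component analysis of 15455 genes the first component (32.1% of the variance) did not separate the ages and spread E16 animal 2 and P0 animal 54 from the rest. The second component (27.8%) placed the E16 libraries at -24.1 to -17.6 and the P0 libraries at 22.9 to 37.4. Xist and Y-linked counts showed that E16 animals 2, 4 and 6 were female and E16 animal 5 male, and that all 3 P0 animals were male, so sex largely moves with age. Transcripts typical of microglia were high in all 7 libraries, as the levels of Cx3cr1, P2ry12 and Csf1r below show. These levels do not measure purity. Markers of border macrophages, monocytes and neutrophils were also present, unevenly between libraries, as given below.

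Hdac1, the deacetylase whose alleles are floxed in these mice, was at 16.2, 16.1, 18.1 and 18.2 CPM at E16 and at 14.9, 12 and 13.4 CPM at P0. All 3 P0 libraries lay below all E16 libraries, as in 5.1% of genes tested, but the difference did not pass the test (log2 change -0.34 ± 0.18 SE, adjusted p = 0.526 by edgeR's quasi-likelihood test). Its partner Hdac2 was at 133, 165, 164 and 152 CPM at E16 and at 145, 139 and 132 CPM at P0. The Hdac2 groups overlapped (log2 change -0.13 ± 0.11, adjusted p = 0.703). With the untreated P0 controls against the same E16 libraries, Hdac1 passed edgeR's test as lower (log2 change -0.57, adjusted p = 0.0427). Hdac2 did not pass there (-0.19, adjusted p = 0.279).

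Few single genes passed the test between the 2 ages. Of 17251 genes tested, 10 passed an adjusted p of 0.05 (0.058%), 8 higher at P0 (0.0464%) and 2 lower (0.0116%). The genes that rose encode a heme-binding protein (Hebp1), a detoxifying epoxide hydrolase (Ephx1), a calcium channel (Trpm2), a secreted macrophage protein (Retnla), a B cell surface protein (Ms4a1), an RNA-binding protein (Rbm45), the epidermal growth factor receptor (Egfr) and a GTPase of immune cells (Gimap3). The genes that fell encode an adult beta globin (Hbb-bt) and a zinc finger protein (Zfp429). With no correction, 1020 genes were higher (5.91%) and 855 lower (4.96%) at an unadjusted p under 0.05. A log2 change above 0 was found in 50.2% of genes. These shares are the background for the list counts without correction below. DESeq2 called 242 genes higher (1.19%) and 185 lower (0.913%), and all 10 genes were among them. limma voom called 5 higher (0.029%) and 2 lower. In bulk RNA, fewer cells of a type and less RNA per cell cannot be told apart, and this holds for each difference below.

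Hebp1, on chromosome 6 (GRCm38 chr6:135137522-135198022, minus strand), encodes a cytosolic heme-binding protein whose cleaved peptide attracts phagocytes. It stood at 4.87, 7.02, 9.07 and 9.15 CPM at E16 and at 44.7, 52.3 and 73.4 CPM at P0. The lowest P0 library was far above the highest E16 library, and the log2 change was 2.93 ± 0.23 (7.62-fold, adjusted p = 0.00223). The call held when any 1 library was left out, but was lost with all control groups in 1 fit (adjusted p = 0.111) or the inducible controls of 4 ages in 1 fit (0.201).

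Ephx1 (chr1:180976210-181020904, minus strand) encodes the microsomal epoxide hydrolase, which turns reactive epoxides into diols. Its E16 levels were 8.98, 12.5, 9.58 and 9.34 CPM and its P0 levels 52.0, 47.4 and 37.6 CPM. Again the groups were wide apart, with a log2 change of 2.19 ± 0.19 (4.57-fold, adjusted p = 0.00297), and the call held without any 1 library. With another gene Ephx1 shares 3.69% of its exon bases, where unstranded counts can come from either.

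Trpm2 (chr10:77907722-77970563, minus strand) encodes a calcium-permeable channel opened by oxidative stress. It measured 45.1, 35.7, 44.6 and 36.0 CPM at E16 against 99.1, 135 and 138 CPM at P0. Every P0 library exceeded the highest E16 library more than the E16 libraries differed among themselves (log2 change 1.62 ± 0.14, 3.08-fold, adjusted p = 0.00328). Without P0 animal 55 the call was lost (adjusted p = 0.0549).

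Rbm45 (chr2:76369984-76383768, plus strand), an RNA-binding protein of the nucleus, was at 5.04, 4.01, 5.17 and 6.60 CPM at E16 and at 20.0, 15.9 and 27.4 CPM at P0. The groups did not overlap (log2 change 2.03 ± 0.26, 4.08-fold, adjusted p = 0.0370). Its call was lost without E16 animal 4 (adjusted p = 0.140), E16 animal 5 (0.101), P0 animal 54 (0.0857), P0 animal 55 (0.0703) or P0 animal 56 (0.0575). It was also lost with all control groups (0.0663) or 4 ages in 1 fit (0.140), limma voom (0.0748) and a test against a 1.5-fold change (0.105).

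Egfr (chr11:16752203-16918158, plus strand), the receptor tyrosine kinase for epidermal growth factor ligands, was at 7.96, 10.8, 10.6 and 6.72 CPM at E16 and at 28.6, 25.4 and 25.6 CPM at P0. The 3 P0 values were close together and all above E16 (log2 change 1.58 ± 0.20, 2.98-fold, adjusted p = 0.0370). Leaving out any 1 library except E16 animal 2 ended the call, with the adjusted p between 0.0546 without P0 animal 56 and 0.153 without P0 animal 55, and so did a test against a 1.5-fold change (0.142). Egfr is also expressed by neural progenitors and astrocytes, and the astrocyte water channel gene Aqp4 was at 1.06 to 4.36 CPM at E16 and at 7.20 to 19.7 CPM at P0. Aqp4 is 1 of 17 neural progenitor and astrocyte markers tested, of which 11 were above 0 and 6 below. Their summed level was 765 to 982 CPM at E16 and 745.5, 828 and 1421 CPM at P0. The part of neural progenitors and astrocytes in the Egfr difference was not tested.

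Retnla (chr16:48842551-48844461, plus strand) encodes a secreted cysteine-rich protein of alternatively activated macrophages. Its 4 E16 libraries held 9 counts together and the 3 P0 libraries 559, a ratio of 86.2 per library total with a 95% interval of 45.1 to 189.6 that covers counting error only. The levels were 0.0442, 0, 0.256 and 0.187 CPM at E16 and 6.93, 8.11 and 14.3 CPM at P0 (adjusted p = 0.0122). Retnla has near-copies in its family, so reads could be split among them, and the call was lost without P0 animal 55 (adjusted p = 0.0703) and by limma voom (0.0748).

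Ms4a1 (chr19:11249675-11266241, minus strand) encodes CD20 of B lymphocytes. It was at 0, 0.270, 0.307 and 0.560 CPM at E16 and at 8.36, 15.4 and 30.3 CPM at P0 (log2 change 6.03 ± 0.72, adjusted p = 0.0370). The P0 animals differed widely, with animal 56 highest. The call was lost without E16 animal 4 (adjusted p = 0.140), E16 animal 5 (0.118), P0 animal 55 (0.0990) or P0 animal 56 (0.0528), and by limma voom (0.139). Other B cell genes were also higher at P0 without passing the test. Cd79a, a chain of the B cell receptor, was at 0.410 to 2.03 CPM at E16 and at 5.00, 10.2 and 23.1 CPM at P0 (adjusted p = 0.106). Igkc, the kappa light chain, was at 0.124 to 1.64 CPM at E16 and at 8.91, 24.2 and 81.4 CPM at P0 (adjusted p = 0.124). In Ms4a1, Cd79a and Igkc the P0 animals had the same order. Of 12 lymphocyte markers tested 10 were above 0, 6 were higher at an unadjusted p under 0.05 and DESeq2 called 4, with a median log2 change of 0.63, and the list's summed level was 514 to 620 CPM at E16 and 508 to 818 CPM at P0. The part of lymphocytes in the Ms4a1 difference was not tested.

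Gimap3 (chr6:48764464-48770851, minus strand), a GTPase of lymphocytes and other blood cells, lies under the 5 CPM set for named genes and is named after its values were seen. It had 1 count in the 4 E16 libraries and 165 in the 3 P0 libraries, a ratio of 229 with a counting interval of 40.6 to 9104. Its P0 levels were 3.02, 2.20 and 3.46 CPM (adjusted p = 0.0129). The call was lost without E16 animal 4 (adjusted p = 0.0841), E16 animal 5 (0.0735) or P0 animal 55 (0.0703).

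Zfp429 (chr13:67387905-67399819, minus strand) encodes a zinc finger protein of a large clustered family with many near-copies, so its counts are uncertain. It was at 16.2, 16.3, 16.3 and 19.4 CPM at E16 and at 0.935, 0.366 and 0.726 CPM at P0. The groups stood far apart, with a log2 change of -4.64 ± 0.35 (24.99-fold lower, adjusted p = 0.00223), and the call held without any 1 library. It was lost with the inducible controls of 4 ages in 1 fit (adjusted p = 0.0917).

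Globin transcripts of red blood cells were lower at P0. Hbb-bt (chr7:103812524-103813996, minus strand), an adult beta globin, was at 334, 374, 321 and 280 CPM at E16 and at 54.3, 65.5 and 121 CPM at P0. All P0 libraries lay below all E16 libraries (log2 change -2.03 ± 0.25, 4.09-fold lower, adjusted p = 0.0380). The call was lost without E16 animal 4 (adjusted p = 0.137), E16 animal 5 (0.101), P0 animal 54 (0.0684) or P0 animal 55 (0.154). It was also lost with 4 ages in 1 fit (0.112), a test against a 1.5-fold change (0.105), a 5 CPM filter (0.0656), no filter (0.0548) and upper quartile scaling (0.0622). Hbb-bs, its near-identical neighbour with which reads may be shared, was at 706, 762, 695 and 597 CPM at E16 and at 196, 280 and 395 CPM at P0 (log2 change -1.25 ± 0.20, adjusted p = 0.0703).

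The alpha globin copies Hba-a2 and Hba-a1 are likewise near-identical. Hba-a2 was at 141, 168, 128 and 116 CPM at E16 and at 15.5, 48.2 and 36.7 CPM at P0 (log2 change -2.06 ± 0.33, adjusted p = 0.0794). Hba-a1 was at 134 to 197 CPM at E16 and at 57.4, 62.1 and 135 CPM at P0, where P0 animal 56 reached the E16 range (adjusted p = 0.299). The embryonic beta-like globin Hbb-y had 102 counts at E16, none of them in animal 5, and 0 at P0. With 3 counts over the P0 group in place of 0, Hbb-y was at least 24.5-fold lower at P0 in pooled counts. This bound does not cover the spread between animals, and Hbb-y did not pass edgeR's test (log2 change -7.68). The embryonic alpha-like globin Hba-x had 39 counts at E16, where 1 library held none, and 0 at P0, at least 9.36-fold lower on the same floor. Hbb-bh1, another embryonic globin, had only 4 counts at E16 and 0 at P0, too few for such a bound. Other red cell genes had the same sign without passing, such as Slc4a1 (the band 3 anion exchanger, log2 change -1.75, adjusted p = 0.229) and Alas2 (erythroid heme synthesis, -1.28, adjusted p = 0.278). Of 10 erythroid markers tested, 1 passed, 8 were lower at an unadjusted p under 0.05, and the median log2 change was -1.51 against 0.0023 for all genes tested. Their summed level was 1225 to 1610 CPM at E16 and 426, 549 and 796 CPM at P0. DESeq2 called 7 of them lower and limma voom 1.

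**Figure D1:**
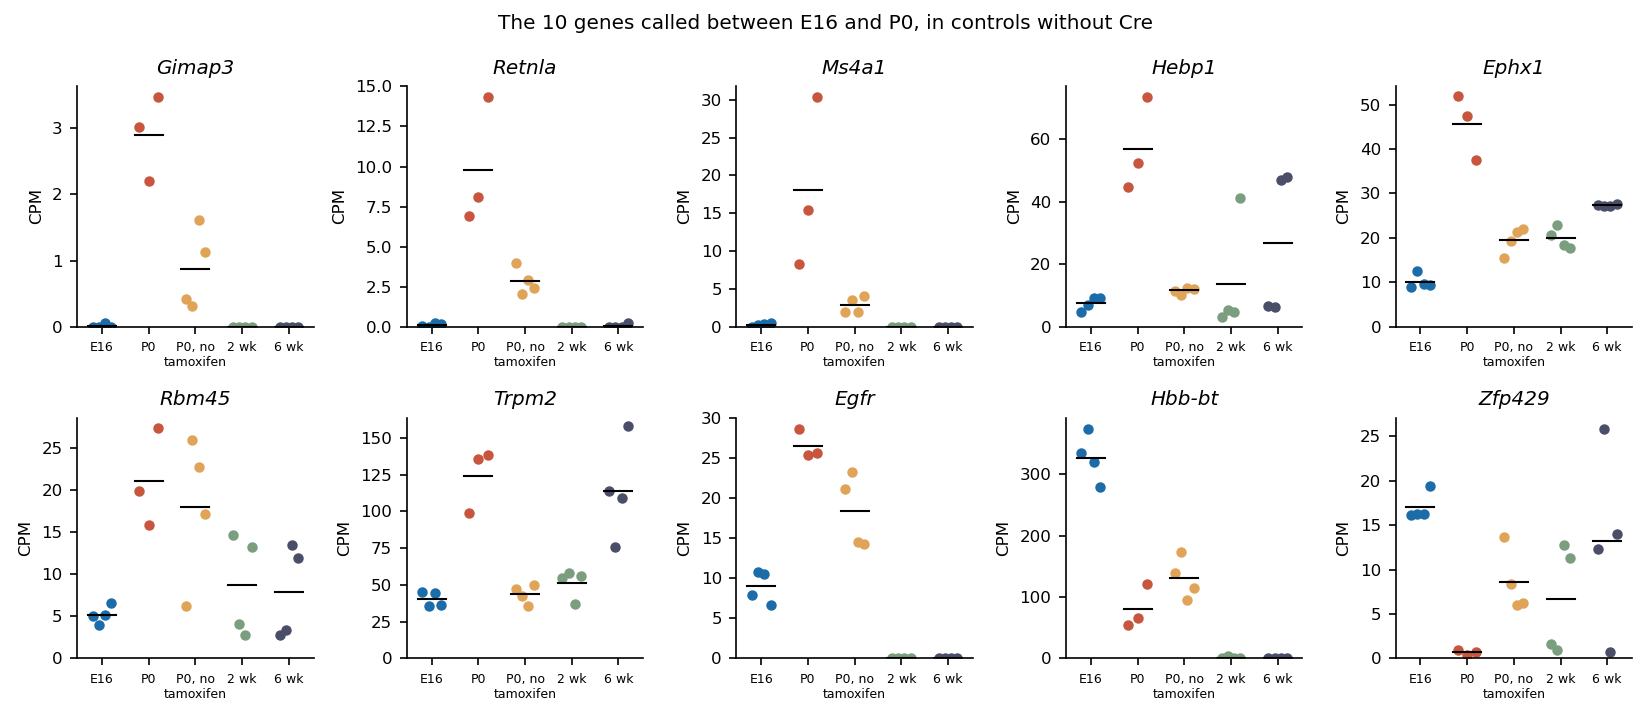
CPM of the 10 called genes in each control library (points) with the group mean (line), at E16, P0, untreated P0, 2 weeks and 6 weeks. Zfp429 was at 16.2 to 19.4 CPM at E16 and under 1 CPM at P0, but spread from 0.712 to 25.9 CPM among the 6-week animals. Egfr was near 0 at 2 and 6 weeks.

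Some of these genes varied as much among animals of a later age as between E16 and P0. Hebp1 was at 3.09, 5.35, 4.88 and 41.0 CPM in the 2-week controls and at 6.58, 6.36, 46.8 and 47.99 CPM in the 6-week controls. Zfp429 was at 1.65, 0.923, 12.7 and 11.3 CPM at 2 weeks and at 12.4, 25.9, 0.712 and 14.0 CPM at 6 weeks. Rbm45 was at 14.7, 4.06, 2.81 and 13.2 CPM at 2 weeks and at 2.81, 3.36, 13.5 and 11.98 CPM at 6 weeks. In all 3 genes the animals of a later age fell into a low and a high set. Trpm2 in the 2-week controls lay between 36.8 and 58.2 CPM and in the 6-week controls between 75.8 and 158 CPM. For Ephx1 the ranges were 17.8 to 22.9 CPM and 27.3 to 27.7 CPM. Egfr, Ms4a1, Gimap3 and Retnla were at 0 or under 0.3 CPM at both later ages.

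The untreated P0 controls share the age but not the tamoxifen or the line, and include 1 female among 4 animals. Against the same 4 E16 libraries, 817 genes were higher (4.85%) and 800 lower (4.75%) in these controls, so both comparisons share their E16 side. Set directly against the untreated P0 controls, a comparison chosen after results were seen and sharing the P0 libraries, the tamoxifen-exposed P0 controls had 452 genes higher (2.59%) and 277 lower (1.59%) of 17445 tested. Tamoxifen, line and handling cannot be told apart there.

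Hebp1 was at 11.6, 10.2, 12.4 and 12.2 CPM in the untreated P0 controls, near its E16 level, and differed directly between the 2 sets of P0 controls (log2 difference 2.41 ± 0.18, adjusted p = 0.00144). Trpm2 was at 35.8 to 49.9 CPM there, within the E16 range or just above it (log2 difference between P0 sets 1.63 ± 0.15, adjusted p = 0.00386). Ephx1 was at 15.5 to 22.0 CPM, between the E16 and the exposed P0 levels (1.36 ± 0.18, adjusted p = 0.0220).

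Zfp429 was at 13.7, 8.38, 5.97 and 6.19 CPM, also in between (log2 difference -3.53 ± 0.49, adjusted p = 0.0236). Retnla was at 2.02 to 3.96 CPM and Ms4a1 at 1.91 to 4.02 CPM, both above E16 and below the exposed P0 controls (adjusted p = 0.0358 and 0.0276 between the P0 sets). For Rbm45 (6.18, 26.0, 22.8 and 17.1 CPM), Egfr (14.3 to 23.3 CPM), Gimap3 (0.315 to 1.61 CPM) and Hbb-bt (95.8 to 174 CPM) the P0 sets did not differ at the threshold (adjusted p = 0.582, 0.0811, 0.0811 and 0.189). Against E16, the untreated P0 controls passed the test in the same direction for 7 of the 9 genes tested. The exceptions were Hebp1 (log2 change 0.53, adjusted p = 0.156) and Trpm2 (0.01, adjusted p = 0.975), and Gimap3 was not tested there.

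The genes that define microglia mostly overlapped in level between E16 and P0. Among 40 homeostatic microglia genes, none passed edgeR's test; 5 were higher and 2 lower at an unadjusted p under 0.05, and the median log2 change was -0.09. DESeq2 called 1 higher, which was Jun, described with the immediate early genes below, and none lower. limma voom called no member of this list or of any list described below. The list's summed level was 37359, 48109, 47272 and 56414 CPM at E16 and 46160, 43655 and 51579 CPM at P0, so the P0 libraries lay inside the E16 range. At 2 and 6 weeks the sum was 124203 to 131050 CPM.

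Cx3cr1 (chr9:119901616-120069879, minus strand), the fractalkine receptor of microglia, was at 2404, 2850, 3032 and 3568 CPM at E16 and at 2540, 2853 and 2858 CPM at P0 (log2 change -0.10 ± 0.14, adjusted p = 0.851). Its 2-week range was 5248 to 6972 CPM and its 6-week range 6394 to 8448 CPM. The P0 values lay within the E16 range.

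P2ry12, the ADP receptor of process motility, was at 1914, 2395, 2849 and 3719 CPM at E16 and at 2100, 1796 and 2056 CPM at P0 (log2 change -0.44 ± 0.20, adjusted p = 0.475), and at 8045 to 12623 CPM at 2 and 6 weeks. Tmem119, a microglial membrane protein, was at 348 to 639 CPM at E16 and at 415, 318 and 491 CPM at P0 (log2 change -0.30). Sall1, the transcription factor that holds microglial identity, was at 249 to 441 CPM at E16 and at 328, 267 and 471 CPM at P0 (log2 change -0.02). None of these 3 genes differed beyond the spread between animals.

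In 3 of the 40 genes all P0 libraries lay above all E16 libraries (5.84% of all genes) and in 2 all lay below (5.1% of all genes). None of them passed, and a few members are given with their values. Fcrls, an Fc receptor-like scavenger protein, was at 1468, 2123, 1888 and 2092 CPM at E16 and at 2380, 3651 and 2464 CPM at P0 (log2 change 0.59 ± 0.17, adjusted p = 0.261). Crybb1, a crystallin expressed by young microglia, was at 204, 345, 356 and 415 CPM at E16 and at 532, 433 and 809 CPM at P0 (0.85 ± 0.25, adjusted p = 0.267). Tgfbr1, the type I receptor for transforming growth factor beta, was at 848, 1095, 1061 and 1367 CPM at E16 and at 750, 763 and 855 CPM at P0 (-0.46 ± 0.15, adjusted p = 0.312), where P0 animal 56 reached the lowest E16 library. With untreated P0 controls against E16, Fcrls (0.61, adjusted p = 0.0227) and Crybb1 (0.72, adjusted p = 0.0487) passed edgeR's test. Tgfbr1 did not (-0.48, adjusted p = 0.0537), and of the 40 genes 3 passed there as higher and 1 as lower.

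Signalling lists that sustain microglia had no called member either. Of 26 genes of the transforming growth factor beta pathway none passed by edgeR or DESeq2, with 1 higher and 4 lower at an unadjusted p under 0.05 and a median log2 change of -0.14. Csf1r, the receptor microglia need to survive, was at 5339 to 6968 CPM at E16 and at 7623, 6202 and 6907 CPM at P0 (log2 change 0.12). Csf2ra, the receptor chain for granulocyte-macrophage colony stimulating factor, was at 67.7 to 98.6 CPM at E16 and at 52.3, 61.8 and 55.5 CPM at P0 (-0.58 ± 0.15, adjusted p = 0.225). Of 18 genes of that receptor list 2 were higher and 4 lower without correction, and DESeq2 called 1 lower. Among 16 purinergic genes, 1 was higher and 4 lower without correction and DESeq2 called 1 lower. The lowest p was that of the ADP receptor P2ry1 (4.10 to 8.23 CPM at E16, 1.01 to 1.98 CPM at P0, log2 change -1.74, adjusted p = 0.198).

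Among 53 transcription factors of macrophages and microglia, 7 were higher and 2 lower without correction, with a median log2 change of 0.01. Etv5, an ETS factor downstream of growth factor signalling, was at 95.9, 117, 109 and 100 CPM at E16 and at 154, 163 and 141 CPM at P0 (0.55 ± 0.11, adjusted p = 0.124). Myb, a progenitor factor that yolk sac macrophages do not need, was at 8.49, 10.2, 6.61 and 7.84 CPM at E16 and at 12.9, 19.5 and 24.3 CPM at P0 (1.18 ± 0.25, adjusted p = 0.147), and at 2.63 to 5.61 CPM in the untreated P0 controls. In both genes the P0 groups lay wholly above E16. The lineage factors Spi1 (log2 change -0.17) and Irf8 (0.06) were close to 0. DESeq2 called 3 of the 53 factors higher.

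Among 29 genes of proliferative-region and axon-tract microglia, the phagocytic states of the newborn brain, 6 were higher and 2 lower without correction, the median log2 change was 0.11, and DESeq2 called 1 higher and 1 lower. Spp1 (osteopontin) was at 437, 516, 874 and 931 CPM at E16 and at 2066, 2364 and 1022 CPM at P0 (1.43 ± 0.34, adjusted p = 0.202). All P0 libraries exceeded all E16 libraries, animal 56 only narrowly, and the untreated P0 controls were at 877 to 1123 CPM. The lysosomal protease gene Ctsl was at 1843, 2380, 2462 and 3246 CPM at E16 and at 1620, 1461 and 1548 CPM at P0 (-0.67 ± 0.18, adjusted p = 0.225). Apoe, the lipid carrier, was at 9662 to 12110 CPM at E16 and at 11699 to 12329 CPM at P0 (log2 change 0.21). Igf1, a growth factor made by axon-tract microglia, was at 161 to 214 CPM at E16 and at 252, 245 and 153 CPM at P0.

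Border and fetal macrophage genes differed widely between animals of the same age. The summed level of 13 border macrophage markers was 10005, 9665, 9251 and 4551 CPM at E16 and 18080, 17755 and 4574 CPM at P0. Animals 54 and 55 thus stood above all E16 libraries while animal 56 matched E16 animal 6, the lowest at E16. In untreated P0 controls the sum was 3694 to 5253 CPM. None of the 13 markers passed, and 12 were above 0 (50.2% of all genes). Without correction 4 were higher (5.91% of all genes) and 1 lower (4.96%). The median log2 change was 0.79. DESeq2 called 2 higher. Without P0 animal 56, 12 were higher at an unadjusted p under 0.05 and the median was 1.21.

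Cd163, the hemoglobin scavenger receptor, was at 142, 210, 209 and 75.6 CPM at E16 and at 885, 988 and 421 CPM at P0 (2.29 ± 0.41, adjusted p = 0.129). Cbr2, a carbonyl reductase of tissue macrophages, was at 14.8, 11.7, 10.7 and 4.67 CPM at E16 and at 146, 96.9 and 42.7 CPM at P0 (3.20 ± 0.50, adjusted p = 0.0989). Both genes were higher in every P0 library, animal 56 included. Lyve1, the hyaluronan receptor, was at 536, 521, 585 and 216 CPM at E16 and at 1426, 1109 and 361 CPM at P0 (1.08 ± 0.50, adjusted p = 0.487).

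Mrc1, the mannose receptor, was at 1575, 1696, 1701 and 777 CPM at E16 and at 3548, 3494 and 837 CPM at P0 (0.89 ± 0.50, adjusted p = 0.569). F13a1, a coagulation factor subunit of perivascular macrophages, was at 2971, 2301, 2282 and 998.5 CPM at E16 and at 4513, 4631 and 913 CPM at P0 (0.66 ± 0.57, adjusted p = 0.733). In both genes P0 animal 56 lay at or below the lower end of E16. With the untreated P0 controls against the same E16 libraries, Mrc1 (591 to 885 CPM) fell by 1.10 on the log2 scale (adjusted p = 0.0257) and F13a1 (667 to 970 CPM) by 1.53 (adjusted p = 0.0195). Between the 2 sets of P0 controls, 8 of the 13 markers were higher in the exposed animals and none lower.

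The wider list of 28 fetal and yolk sac macrophage genes overlaps that list. None passed, and 24 were above 0 (50.2% of all genes). Without correction 4 were higher (5.91% of all genes) and none lower. The median log2 change was 0.70. DESeq2 called 3 higher. Without P0 animal 56, 19 were higher without correction and the median was 1.01. With untreated P0 controls the median was -0.81, with 1 gene higher and 6 lower at an adjusted p under 0.05.

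**Figure D2:**
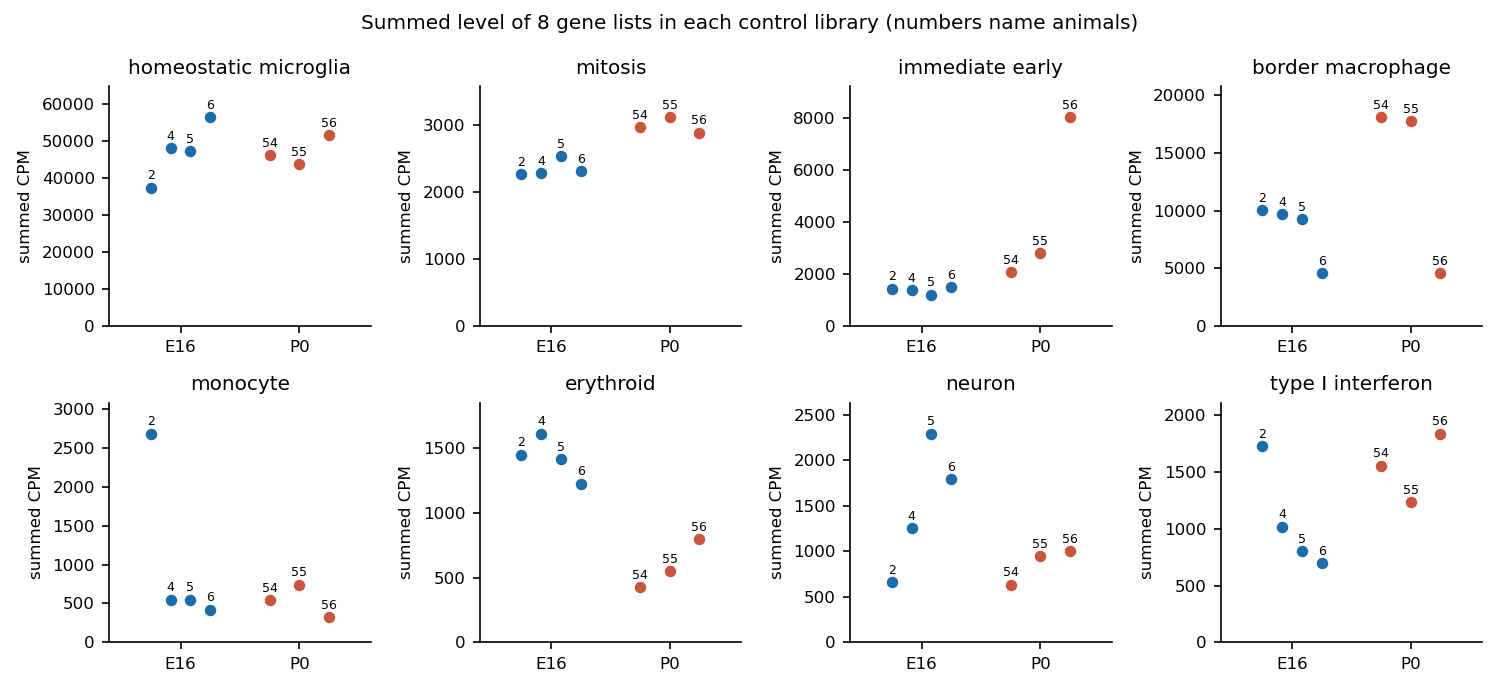
Summed CPM of 8 gene lists in each library, points labelled by animal number. Homeostatic genes overlapped between ages, mitosis genes were higher in all 3 P0 libraries, erythroid markers lower in all 3, and border macrophage markers were 18080 and 17755 CPM in P0 animals 54 and 55 but 4574 CPM in animal 56.

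Genes of cell division were shifted together. All 40 mitosis genes had a log2 change above 0, against 50.2% of all genes tested, and their median was 0.34. None passed edgeR's test, although 26 were higher at an unadjusted p under 0.05 (5.91% of all genes) and none lower. In 23 of them all P0 libraries lay above all E16 libraries (5.84% of all genes). DESeq2 called 6 higher (Cdk1, Ect2, Foxm1, Kif11, Prc1 and Spc25). Members of one programme move together across animals, so these counts are not independent of each other. The summed level was 2271, 2283, 2537 and 2318 CPM at E16 and 2967, 3120 and 2889 CPM at P0.

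Promoter stretches of 4 mitosis genes are shown as description, chosen among those with a match to the cell cycle homology region (CHR). Many promoters of mitosis genes carry a CCAAT box and a CHR, elements through which the MuvB complexes time transcription in G2 and mitosis. The part of these elements in the differences was not tested. The stretches were taken from RefSeq (GRCm38.p6), upstream of the annotated start and written 5′ to 3′ along the gene. Capitals mark the CHR (TTTGAA or TTCAAA) and the CCAAT box (CCAAT or ATTGG), and the Mki67 stretch holds no CCAAT box. Kif11 is on the plus strand at chr19:37376312-37376381, Top2a on the minus strand at chr11:99024190-99024259, Ect2 on the minus strand at chr3:27153955-27154024 and Mki67 on the minus strand at chr7:135716440-135716509.
Kif11: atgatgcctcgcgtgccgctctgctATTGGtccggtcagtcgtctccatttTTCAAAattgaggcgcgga
Top2a: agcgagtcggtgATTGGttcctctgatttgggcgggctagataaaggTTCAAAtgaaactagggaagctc
Ect2: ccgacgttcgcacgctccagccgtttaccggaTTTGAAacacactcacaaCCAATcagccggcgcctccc
Mki67: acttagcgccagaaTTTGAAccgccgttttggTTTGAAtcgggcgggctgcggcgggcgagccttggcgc

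Searched on both strands in the 250 bases before the start, the CHR letters were present in 12 of 34 mitosis promoters (35.3%), 4 of 35 replication promoters (11.4%) and 18.3% of all 27025 promoters. The CCAAT letters were present in 27 of 34 mitosis promoters (79.4%), 20 of 35 replication promoters (57.1%) and 37.5% of all promoters. A match of letters is a description and not a measured binding site.

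Kif11, the mitotic kinesin that separates spindle poles, was at 68.7, 55.03, 63.9 and 65.5 CPM at E16 and at 88.6, 97.7 and 106 CPM at P0 (0.62 ± 0.12, adjusted p = 0.115). Cdk1, the mitotic kinase, was at 89.03, 95.9, 101 and 99.9 CPM at E16 and at 126, 135 and 126 CPM at P0 (0.43 ± 0.09, adjusted p = 0.147). The P0 libraries of both lay wholly above E16.

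Top2a, the topoisomerase that untangles chromosomes, was at 183, 189, 239 and 220 CPM at E16 and at 282, 306 and 256 CPM at P0 (0.45 ± 0.12, adjusted p = 0.219). Ect2, the exchange factor of cytokinesis, was at 30.2, 38.7, 34.6 and 34.8 CPM at E16 and at 45.6, 51.5 and 45.7 CPM at P0 (0.47 ± 0.12, adjusted p = 0.212). Mki67, the Ki-67 antigen of cycling cells, was at 229, 204, 279 and 244 CPM at E16 and at 299, 311 and 321 CPM at P0 (0.39 ± 0.11, adjusted p = 0.259). None of the 3 overlapped between ages, and the differences were of a similar size.

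In untreated P0 controls the shift was not seen, and 2 of the 40 mitosis genes were above their E16 level there, the median log2 change was -0.20, and 2 fell at an adjusted p under 0.05. Mki67 was at 157 to 216 CPM in those animals and fell by 0.46 on the log2 scale (adjusted p = 0.0438), and Kif11 was at 37.2 to 65.5 CPM (log2 change -0.38, adjusted p = 0.151). Set directly against the untreated controls, the tamoxifen-exposed P0 controls had 16 of 40 mitosis genes higher and none lower, with a median log2 difference of 0.53. The list's summed level was 1854 to 2402 CPM in untreated P0 controls, 265 to 441 CPM in the 2-week and 77.7 to 108 CPM in the 6-week controls. With a term for sex over all control groups, 36 of 40 remained above 0 but only 3 were higher without correction.

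**Figure D3:**
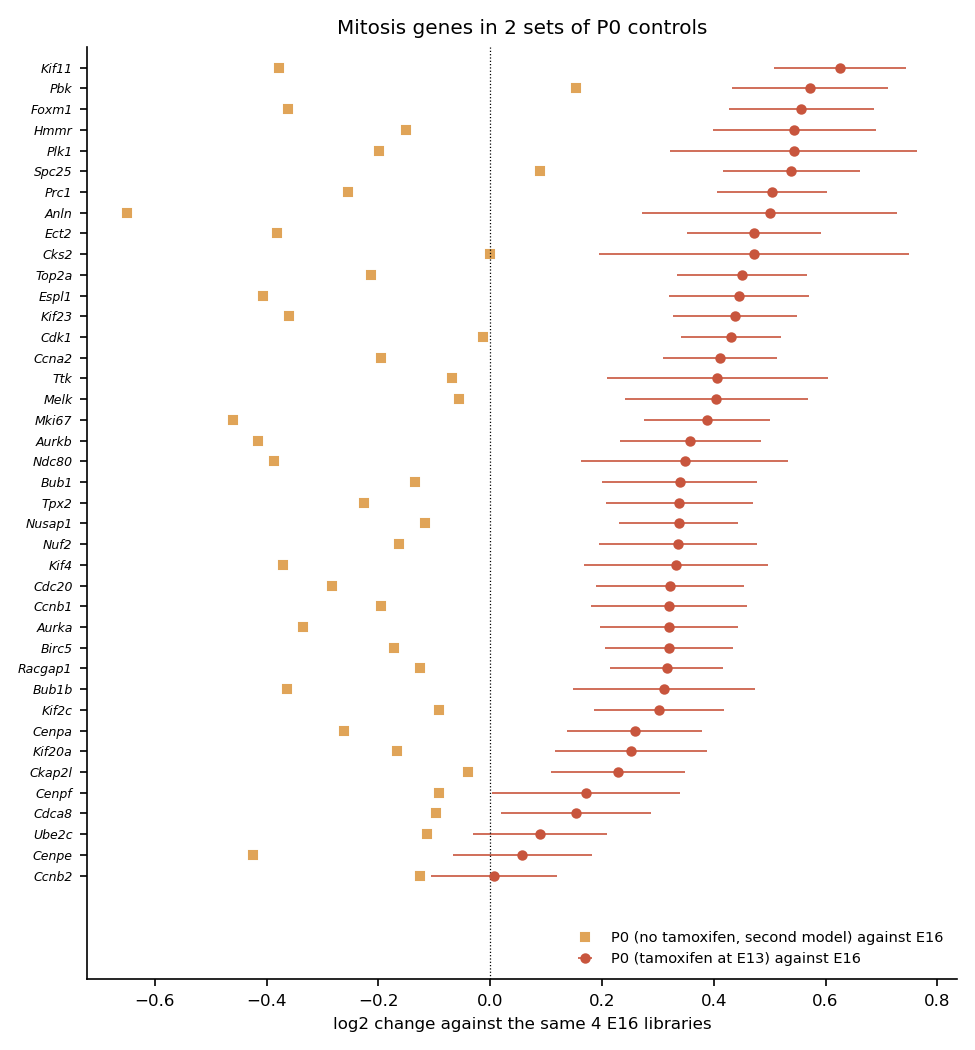
Log2 change of the 40 mitosis genes against the 4 E16 libraries, for the tamoxifen-exposed P0 controls (circles, bars are 1 SE) and the untreated P0 controls (squares). All circles lie right of 0 and 2 squares do.

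DNA replication genes were mostly above 0, with smaller changes. Of 44 tested, 37 were above 0 (50.2% of all genes), and 4 were higher (5.91% of all genes) and none lower without correction. The median log2 change was 0.12, with none called by DESeq2. With a term for sex over all control groups, 30 replication genes were above 0 and 1 was higher without correction. Pcna, the sliding clamp, was at 46.2, 50.7, 43.9 and 42.1 CPM at E16 and at 54.6, 61.9 and 71.8 CPM at P0 (0.46 ± 0.12, adjusted p = 0.236), with no overlap. The helicase subunits Mcm2 (log2 change -0.01) and Mcm5 (0.07) were near 0. Of 21 replication-dependent histone genes, 19 were above 0 and 7 higher without correction, with a median of 0.69 and 3 called higher by DESeq2. Linker histone Hist1h1b was at 4.02, 6.84, 6.40 and 6.04 CPM at E16 and at 11.9, 9.94 and 12.1 CPM at P0 (0.98 ± 0.25, adjusted p = 0.209). With untreated P0 controls the medians were -0.03 for replication genes and -0.27 for histone genes.

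Genes of G1 control, a list of cyclin-dependent kinase inhibitors, D cyclins and their partners, were mixed, with 4 of 16 higher and 2 lower without correction, and 1 each way called by DESeq2. Cdkn2c (p18INK4c) was at 24.6, 26.5, 29.6 and 27.4 CPM at E16 and at 43.0, 40.2 and 50.01 CPM at P0 (0.73 ± 0.12, adjusted p = 0.0794). Cdkn1c (p57KIP2, an imprinted growth inhibitor) was at 22.1, 18.3, 21.1 and 16.3 CPM at E16 and at 10.7, 11.0 and 7.88 CPM at P0 (-0.97 ± 0.21, adjusted p = 0.161). The groups did not overlap in either gene, in opposite directions. Of 25 p53 targets 2 were higher and 2 lower without correction, with none called by DESeq2.

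Most fetal growth genes had a log2 change below 0 in the tamoxifen-exposed P0 controls. Of 22 imprinted growth and heterochronic RNA-binding genes, the regulators that mark fetal stages, none passed and 5 were above 0. Without correction none was higher and 5 were lower (4.96% of all genes), and the median log2 change was -0.26. DESeq2 called 2 lower. With untreated P0 controls against E16, 11 of 20 tested were above 0, the median was 0.05, and 3 were higher and 3 lower at an adjusted p under 0.05. Mest, an imprinted gene of fetal growth, was at 30.7, 36.4, 43.2 and 39.9 CPM at E16 and at 16.0, 22.1 and 21.7 CPM at P0 (-0.91 ± 0.15, adjusted p = 0.0794). Mest in untreated P0 controls was at 31.7 to 79.5 CPM, not below E16. Igf2bp1, a fetal RNA-binding protein, was at 20.4, 12.2, 14.8 and 9.52 CPM at E16 and at 5.11, 7.74 and 1.06 CPM at P0 (-1.61 ± 0.57, adjusted p = 0.351). It was at 3.62 to 5.04 CPM in the untreated P0 controls, where it passed (log2 change -1.84, adjusted p = 0.00802). Lin28b, which blocks let-7 maturation, was at 7.78 to 12.8 CPM at E16 and at 5.77 to 9.94 CPM at P0 (log2 change -0.25). Igf2bp3, of the same family as Igf2bp1, was at 88.3 to 110 CPM at E16 and at 83.7, 96.0 and 74.7 CPM at P0 (-0.25).

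Immediate early genes, which respond within minutes to stimulation, tissue handling included, were higher at P0 as a group. None of 26 passed edgeR's test, and 25 were above 0 (50.2% of all genes). At an unadjusted p under 0.05, 19 were higher (5.91% of all genes) and none lower. The median log2 change was 1.10. DESeq2 called 11 higher. The summed level was 1438, 1364, 1199 and 1502 CPM at E16 and 2079, 2807 and 8025 CPM at P0, so P0 animal 56 stood far above the others. Without animal 56, 17 were higher without correction and the median was 0.57.

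Fos was at 69.5, 43.1, 29.4 and 64.2 CPM at E16 and at 146, 238 and 1268 CPM at P0 (3.38 ± 0.73, adjusted p = 0.188). Egr1 was at 23.3, 37.8, 35.1 and 83.3 CPM at E16 and at 148, 296 and 1544 CPM at P0 (3.87 ± 0.81, adjusted p = 0.179). Both encode rapidly induced transcription factors, and in both the 3 P0 animals differed from each other more than the E16 animals did.

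Jun, the partner of Fos, was at 123, 175, 150 and 226 CPM at E16 and at 344, 420 and 860 CPM at P0 (1.68 ± 0.31, adjusted p = 0.124). Ier3, a stress-induced survival factor, was at 20.9, 20.2, 15.6 and 15 CPM at E16 and at 31.5, 42.8 and 46.6 CPM at P0 (1.16 ± 0.19, adjusted p = 0.0716). For both the lowest P0 library was above the highest E16 library.

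Promoters of a pair of immediate early genes with a match to the cyclic AMP response element (CRE, TGACGTCA, here in capitals) are shown as description. Such elements are a classic route of induction of these genes. The CRE letters were present in 3 of 22 promoters of the list (13.6%: Btg2, Dusp1 and Maff) and in 1.77% of all promoters. Both stretches come from RefSeq (GRCm38.p6) and lie on the minus strand, at chr1:134079283-134079352 for Btg2 and chr17:26508577-26508646 for Dusp1.
Btg2: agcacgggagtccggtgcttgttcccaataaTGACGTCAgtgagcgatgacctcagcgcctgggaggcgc
Dusp1: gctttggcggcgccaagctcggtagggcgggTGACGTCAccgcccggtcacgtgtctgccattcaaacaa

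Dusp1, the phosphatase that shuts off stress kinases, was at 61.7, 40.9, 44.8 and 53.3 CPM at E16 and at 89.02, 155 and 725 CPM at P0 (2.66 ± 0.64, adjusted p = 0.219). Btg2, an antiproliferative gene, was at 136, 98.7, 87.6 and 82.5 CPM at E16 and at 137, 148 and 290 CPM at P0 (0.91 ± 0.28, adjusted p = 0.299). Maff, a small Maf factor, was at 0.929 to 1.90 CPM at E16 and at 0.990 to 2.11 CPM at P0 (0.07). The part of CRE matches in these differences was not tested. The untreated P0 controls had 6 of 26 immediate early genes above E16 at an adjusted p under 0.05 and none below, with a median of 0.40. Fos was at 101 to 247 CPM in them and Egr1 at 223 to 474 CPM. Between the 2 sets of P0 controls, 2 of the 26 genes were higher in the exposed animals and none lower.

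Glucocorticoid-responsive genes shared some of these members. Of 24 tested, 22 were above 0 (50.2% of all genes) and 7 higher without correction (5.91% of all genes). The median was 0.53, or 0.22 without P0 animal 56, and DESeq2 called 3 higher. Sult1a1, a sulfotransferase, was at 10.7, 15.6, 12.96 and 8.71 CPM at E16 and at 29.5, 29.0 and 55.4 CPM at P0 (1.66 ± 0.26, adjusted p = 0.0703). Fkbp5, a chaperone of the glucocorticoid receptor, was at 80.8 to 101 CPM at E16 and at 106, 132 and 315 CPM at P0 (1.01 ± 0.32, adjusted p = 0.304). Tsc22d3 (GILZ), another such target, overlapped between ages at 137 to 259 CPM and 174 to 356 CPM. Of 18 clock genes 4 were higher and none lower without correction, and DESeq2 called 1 higher.

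Immune gene lists had no called member by edgeR, and some of their counts rested on single libraries. Of 38 type I interferon response genes none passed, and 37 were above 0 (50.2% of all genes). Without correction 10 were higher (5.91% of all genes) and none lower. The median was 0.61, while DESeq2 called 3 higher. The summed level was 1730, 1017, 803 and 698 CPM at E16 and 1556, 1237 and 1836 CPM at P0, so E16 animal 2 lay within the P0 range. Without E16 animal 2, 23 were higher without correction, and without P0 animal 56, 3. Bst2 (tetherin) was at 77, 88.9, 63.7 and 64.6 CPM at E16 and at 115, 103 and 154 CPM at P0 (0.76 ± 0.17, adjusted p = 0.178). Irf7, the factor that amplifies the response, overlapped at 7.94 to 27.5 CPM and 14.98 to 25.3 CPM. In the untreated P0 controls the list's median was -0.22 with none called, and 11 of 38 were higher in the exposed than in the untreated P0 controls.

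None of 23 chemokine and chemokine receptor genes passed edgeR's test, with 7 higher and 2 lower without correction (median 0.13), and DESeq2 called 5 higher and 1 lower. Ccl12, which attracts monocytes, was at 43.6, 57.2, 43.5 and 51.2 CPM at E16 and at 78.6, 97.6 and 134 CPM at P0 (1.08 ± 0.17, adjusted p = 0.0682), and at 71.2 to 182 CPM in the untreated P0 controls, where it passed (log2 change 1.21, adjusted p = 0.0229). Ccl7 was at 14.3, 8.64, 11.2 and 5.04 CPM at E16 and at 29.3, 30.5 and 31.7 CPM at P0 (1.63 ± 0.30, adjusted p = 0.110). Ccl2 was at 19.9, 11.6, 13.1 and 13.7 CPM at E16 and at 25.2, 28.4 and 63.5 CPM at P0 (1.41 ± 0.33, adjusted p = 0.198). None of the 3 overlapped between ages. Cxcl10, an interferon-induced T cell attractant, was at 2.56 to 4.98 CPM at E16 and at 1.43 to 1.68 CPM at P0 (-1.32 ± 0.36, adjusted p = 0.245).

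Among 25 inflammatory cytokine and inflammasome genes 7 were higher and none lower without correction (median 0.11), and DESeq2 called 3 higher. Osm (oncostatin M) was at 8.36, 6.21, 7.17 and 4.61 CPM at E16 and at 15.1, 15.6 and 29.1 CPM at P0 (1.59 ± 0.30, adjusted p = 0.111). Il1b was at 6.92 to 14.7 CPM at E16 and at 18.1, 31.6 and 12.5 CPM at P0 (1.01, adjusted p = 0.347), with overlap. Tlr2, a sensor of bacterial lipoproteins, was at 305 to 377.4 CPM and 277 to 373 CPM (log2 change -0.04), and of 20 Toll-like receptor genes 4 were higher and 1 lower without correction, with none called by DESeq2.

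The complement list held differences in both directions (4 of 20 higher and 2 lower without correction, median 0.07, 1 called lower by DESeq2). C1qb, a chain of the complement initiator C1q, was at 3599, 4430, 4411 and 4980 CPM at E16 and at 5582, 4926 and 7033 CPM at P0 (0.44 ± 0.15, adjusted p = 0.341), and C1qa (0.41) and C1qc (0.37) gave similar changes. Itgam (CD11b, a complement receptor chain) was at 249, 275, 217 and 313 CPM at E16 and at 167, 152 and 153 CPM at P0 (-0.74 ± 0.15, adjusted p = 0.134). In the untreated P0 controls Itgam was at 146 to 180 CPM, where it passed (log2 change -0.77, adjusted p = 0.0115). Fcgr2b, the inhibitory Fc receptor, was at 318, 278, 287 and 206 CPM at E16 and at 496, 488 and 354 CPM at P0 (0.72 ± 0.19, adjusted p = 0.219).

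None of 21 antigen presentation genes passed edgeR's test, with 4 higher and 4 lower without correction and a median of 0.05, and DESeq2 called 1 higher and 2 lower. The class II gene H2-Aa was at 261, 134, 124 and 47.1 CPM at E16 and at 41.6, 30.3 and 18.3 CPM at P0 (-2.23 ± 0.59, adjusted p = 0.246). The invariant chain Cd74 was at 852, 443, 385 and 186 CPM at E16 and at 191, 170 and 185 CPM at P0 (-1.37 ± 0.47, adjusted p = 0.348). E16 animal 2 was the highest in both genes. H2-K1, a class I gene, was at 153, 113, 99.8 and 143 CPM at E16 and at 206, 209 and 285 CPM at P0 (0.87 ± 0.19, adjusted p = 0.153). Compared with E16, the untreated P0 controls fell in 9 of these 21 genes and rose in none, among them H2-Aa (20.6 to 32.7 CPM, log2 change -2.60, adjusted p = 0.0162). Class II genes are also expressed by monocyte-derived cells, whose markers in E16 animal 2 are given below.

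Metabolic lists were close to 0 except glycolysis. Of 72 nuclear-encoded respiratory chain genes none was higher or lower at an unadjusted p under 0.05 by edgeR (median -0.04), and the same held for the 8 mitochondrially encoded genes (median -0.12). DESeq2 called none in either list. Lysosome genes (4 of 38 higher and 2 lower without correction, median 0.09, 1 called lower by DESeq2), sterol synthesis genes (none of 26 higher, 1 lower) and ribosomal protein genes (3 of 79 higher, 1 lower, median -0.02, 1 called lower by DESeq2) moved little.

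Of 36 glycolysis and hypoxia genes 32 were above 0 (50.2% of all genes) and 7 higher without correction (5.91% of all genes). The median was 0.30, and DESeq2 called 2 of these genes higher. Their summed level was 3156 to 3539 CPM at E16 and 4715, 4571 and 3094 CPM at P0, with animal 56 below E16, and without animal 56, 19 were higher without correction. Pkm, pyruvate kinase, was at 438, 381, 417 and 376.3 CPM at E16 and at 533, 491 and 508 CPM at P0 (0.35 ± 0.12, adjusted p = 0.318). Egln3, an oxygen-sensing prolyl hydroxylase, was at 5.80 to 11.4 CPM at E16 and at 32.2, 43.6 and 8.55 CPM at P0 (1.92 ± 0.48, adjusted p = 0.221). Against E16, the untreated P0 controls had 16 genes of this list lower and 1 higher than E16, and the exposed P0 controls had 13 higher and none lower than the untreated ones. Pkm was at 256 to 308 CPM in the untreated animals (log2 difference between P0 sets 0.98 ± 0.12, adjusted p = 0.0220).

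Of the 11 class I and II histone deacetylase genes, Hdac1 and Hdac2 included, none passed edgeR's test, with 1 higher and 1 lower without correction, a median of 0.01 and 1 called lower by DESeq2. Hdac5, a class IIa enzyme that shuttles to the cytoplasm, was at 63.2, 72.4, 64.3 and 70.3 CPM at E16 and at 44.5, 52.2 and 47.6 CPM at P0 (-0.48 ± 0.11, adjusted p = 0.171), and passed with the untreated P0 controls (44.0 to 53.6 CPM, log2 change -0.54, adjusted p = 0.0165). Dnmt3a, the de novo DNA methyltransferase, was at 155 to 215 CPM at E16 and at 132 to 167 CPM at P0 (-0.36 ± 0.13, adjusted p = 0.347), and 2 of 11 DNA methylation genes were lower without correction.

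RNA of other blood cells was uneven between libraries. Monocyte markers summed to 2679, 548, 550 and 420 CPM at E16 and to 544, 741 and 322 CPM at P0, so E16 animal 2 stood alone. Ccr2, the monocyte chemokine receptor, was at 881, 134, 148 and 89.9 CPM at E16 and at 55.8, 73.4 and 17.8 CPM at P0 (-2.71, adjusted p = 0.398). The median log2 change of 13 monocyte markers was -0.96 and turned to 0.21 without E16 animal 2. Neutrophil markers summed to 7282, 2867, 2764 and 1774 CPM at E16 and to 3305, 3985 and 1243 CPM at P0 (median -0.41 over 15, and 0.12 without E16 animal 2).

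Most neuron markers had a log2 change below 0, and astrocyte markers went both ways. Neuron markers summed to 660, 1256, 2294 and 1798 CPM at E16 and to 634, 951 and 1004 CPM at P0, so E16 animal 2 lay within the P0 range. None of 20 passed, while 8 were lower (4.96% of all genes) and none higher without correction (median -0.79, 4 called lower by DESeq2). Sox11, a factor of young neurons, was at 125, 246, 561 and 375 CPM at E16 and at 79.3, 111 and 101 CPM at P0 (-1.72 ± 0.43, adjusted p = 0.234). Dcx (doublecortin) was at 69.2, 131, 237 and 201 CPM at E16 and at 57.5, 86.1 and 81.6 CPM at P0 (-1.07 ± 0.36, adjusted p = 0.337). Untreated P0 controls held 1442 to 3134 CPM of neuron markers, and 10 of 20 were lower in the exposed than in the untreated P0 controls. Against E16, the untreated P0 controls had 14 of 20 neuron markers above 0, with a median log2 change of 0.46. Sox11 and Dcx were under 2 CPM at 2 and 6 weeks.

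Aqp4 was at 1.06, 2.47, 4.36 and 1.93 CPM at E16 and at 7.20, 12.4 and 19.7 CPM at P0 (2.43 ± 0.46, adjusted p = 0.115). Gfap, the astrocyte filament, was at 0 to 1.13 CPM at E16 and at 3.13, 3.66 and 17.7 CPM at P0 (4.30 ± 1.145, adjusted p = 0.245). Of 17 neural progenitor and astrocyte markers 11 were above 0 and 6 below, and 6 were higher and 1 lower without correction (median 0.52, 1 called higher by DESeq2). Their summed level was 765 to 982 CPM at E16 and 745.5, 828 and 1421 CPM at P0. The untreated P0 controls passed as higher in 9 of 17, Aqp4 (21.1 to 47.9 CPM) among them. Among 14 vascular markers 4 were lower and none higher without correction (median -0.44), and DESeq2 called 1 lower. The part of neural and vascular RNA in the differences above was not tested.

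**Figure D4:**
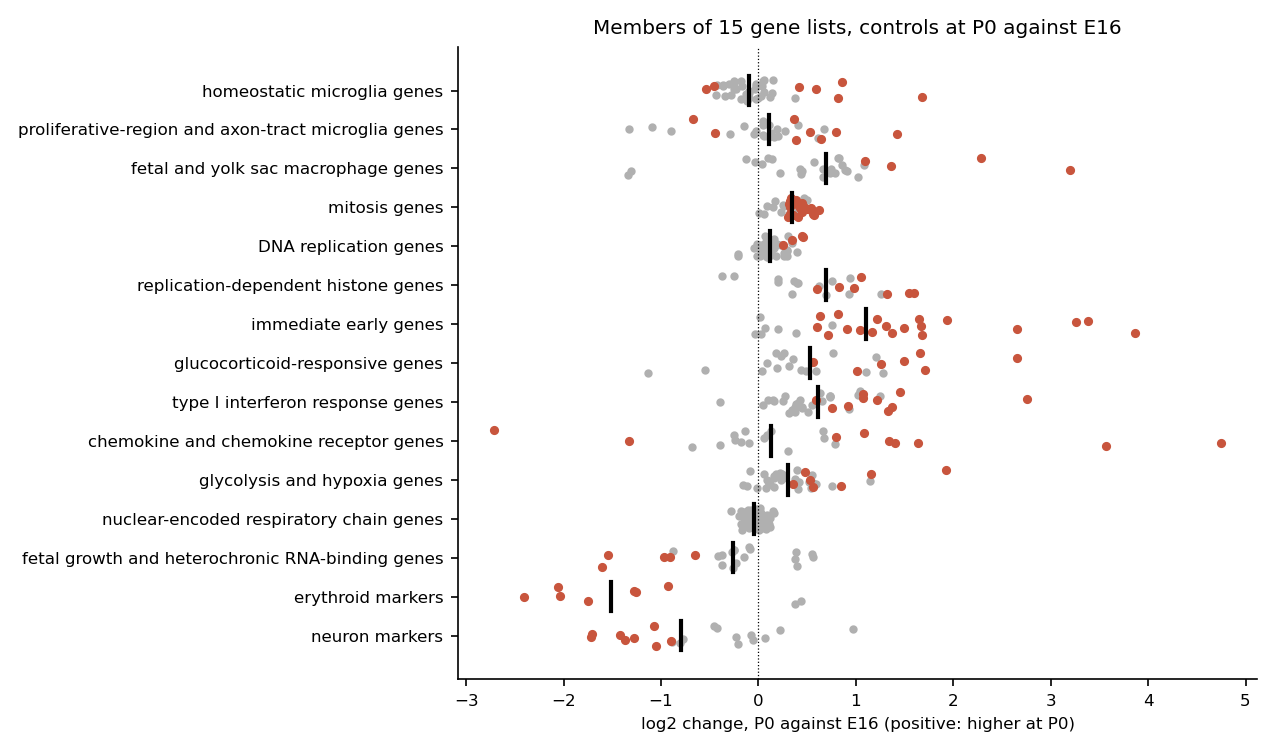
Log2 change from E16 to P0 of the members of 15 gene lists (points) with the list median (bar); red marks an unadjusted p under 0.05. Hbb-y (-7.68) lies off the axis among the erythroid markers. Mitosis genes cluster narrowly around 0.34, immediate early genes spread up to 3.87, and homeostatic microglia and respiratory chain genes centre near 0.

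Sex was examined because it moves with age. A sex term in the fit of the 7 libraries, where it rests on E16 animal 5, the single male at E16, left no gene past the threshold, with all 10 genes in the same direction. A sex term over all control groups kept 6 of the 10. Trpm2, Ephx1, Retnla, Ms4a1, Gimap3 and Hbb-bt passed there, while Hebp1 (adjusted p = 0.229), Rbm45 (0.195), Egfr (0.297) and Zfp429 (0.0502) did not.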

How the data were processed

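The submitters' processing notes name CASAVA 1.8.2, STAR 2.5.2b, featureCounts 1.5.1 (Subread), limma 3.28.21 and build GRCm38. Which gene annotation was counted is not given in the sources used. The table of counts per gene was used as deposited by the authors, unnormalized and unstranded. Of 48526 genes, 48144 matched a GENCODE vM21 symbol, and locations come from it. Promoters come from a RefSeq table (GRCm38.p6). Totals were 16067722 to 22611606.

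Controls at P0 were tested against E16 in R 4.3.3 with edgeR 4.0.16 (filterByExpr, TMM, quasi-likelihood with robust=TRUE, Benjamini-Hochberg over 17251 genes, threshold 0.05), tested on simulated data. Standard errors are the log2 change divided by the root of F. Alternatives used DESeq2 1.42.0, limma 3.58.1 (voom), other scalings, filters, sample sets and leaving out libraries. Members and gene lists (45) were chosen with earlier results of these data known, and lists got no test. Named were Hdac1, Hdac2, Cx3cr1, called genes of at least 5 CPM without overlap (up to 10 each way), and list members with their values. Some genes are not reported here.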

Additional observations from a re-analysis of the deposited data

Results flagged for a closer look

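Among 57 groups of 4 E16 values examined (single genes and summed lists), 7 held 1 animal set apart from the other 3 by Dixon's test, and chance alone gives about 1 in 20. Groups of 3 at P0 cannot be examined this way.

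Among called genes, Ephx1 was 12.5 CPM in E16 animal 4 against 8.98 to 9.58 CPM in the others. Gimap3 was 0.0512 CPM, a single count, in E16 animal 5 against 0 in the others. Zfp429 was 19.4 CPM in E16 animal 6 against 16.2 to 16.3 CPM. All 3 values lie far from the P0 libraries.

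Among summed lists, E16 animal 2 held 2679 CPM of monocyte markers against 420 to 550 CPM in the others. E16 animal 5 held 1403 CPM of inflammatory cytokine and inflammasome genes against 1579 to 1607 CPM. E16 animal 6 held 4551 CPM of border macrophage markers against 9251 to 10005 CPM, and 120 CPM of oligodendrocyte lineage markers against 152 to 156 CPM.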

How the results depend on the processing

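The 10 called genes kept the sign of their log2 change in the alternatives that tested them. With untreated P0 controls, however, Trpm2 was at 0.01, which is no change, and Hebp1 at 0.53. Of 208 such values 153 also kept their call and 55 lost it. Against 8 higher and 2 lower genes, DESeq2 gave 242 and 185, all control groups in 1 fit 163 and 117, the inducible controls of 4 ages 69 and 41, no low-count filter 41 and 15, untreated P0 controls in place 817 and 800, limma voom 5 higher, and a test against a 1.5-fold change, a 5 CPM filter or upper quartile scaling 1 lower. Chosen after seeing the data, a neural marker covariate gave 63 and 29, a sex term over all control groups 63 and 42, and a sex term in the 7 libraries 0 and 0, with 1092 genes at an unadjusted p under 0.05. The planned sex covariate needed both sexes at both ages and was not run, since P0 held males only. Leaving out 1 library gave 2 to 61 higher (fewest without P0 animal 55, most without E16 animal 2) and 1 to 65 lower (most without E16 animal 2).

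No member of these 4 lists (homeostatic, fetal macrophage, replication and mitosis genes) was called by edgeR. DESeq2 called 1 homeostatic (Jun), 3 fetal macrophage and 6 mitosis genes higher. All controls in 1 fit called 2 homeostatic and 3 fetal, the 4 ages 1 and 2, a sex term over all controls 2 and 2, and the neural covariate 1 homeostatic. Untreated P0 controls gave 3 homeostatic and 1 fetal higher, and 1 homeostatic, 6 fetal, 2 replication and 2 mitosis genes lower. Leaving out 1 library gave 0 to 1 mitosis (1 without E16 animal 2) and 0 to 1 fetal genes higher (1 without P0 animal 56). Mrc1 (-1.10), F13a1 (-1.53) and Mki67 (-0.46) reversed with untreated P0 controls. The cause of these differences was not tested.

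No paired analysis was possible because the E16 and P0 animals share no number. With 4 and 3 libraries the median standard error was 0.26 (0.17 at 5 CPM or more), so small changes were not detectable, and litter and processing day are not in the labels used here.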
